A study of Mus musculus with 16 samples.

Results

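Untreated wild-type trabecular osteoblasts (TOs) kept for 6 days in simulated microgravity (0g) were compared with TOs kept at normal gravity (1g), across every gene that the arrays detected. The arrays were chosen by their labels alone, as Pthrp+/+ genotype with no treatment, which gave 2 arrays at 0g and 2 at 1g, 4 of the 16 arrays of the series. The TOs were primary cells grown out of long bone fragments of C57BL/6 mouse embryos 1 day before birth. The sample descriptions name the bone as tibia in one field and femur in another, and the methods give femur. Both groups had been passaged, frozen and cultured with ascorbic acid, glycerophosphate and dexamethasone, both were attached to plastic microcarriers, and both had their medium changed daily. The 0g cells turned in a horizontally rotating vessel with a gas-permeable membrane, whereas the 1g cells rested in agarose-coated plasticware in a standard incubator, so that reduced gravity, rotation and the vessel itself cannot be told apart. The other 12 arrays carried TOs treated each day for 2 h with PTHrP1-36 at 10 nM (the peptide made from the Pthrp gene), TOs lacking Pthrp (Pthrp-/-), or both. The duplicates are described only as duplicate experiments, so the variation between them may be technical. The variation behind each p-value is that between duplicates pooled over all 8 conditions of the series, not that of the 4 arrays compared alone.

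Osteoblasts build bone by secreting a matrix rich in collagen and mineralizing it, and they sense mechanical load through integrins, the actin cytoskeleton and secreted signals. Bone loses mass when load is removed, as in bed rest or space flight, and rotating vessels are used to keep cells on carriers in constant free fall on the ground. PTHrP acts on osteoblasts through the receptor Pth1r. No probe for the PTHrP gene (Pthlh) was analysed here. Pth1r read 89.6 and 82.2 at 1g and 74.0 and 74.1 at 0g, a log2 fold change of -0.21 ± 0.20 (SE) that did not pass the test (adjusted p = 0.527).

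Values are bead intensities in arbitrary units after background correction and quantile normalization, and fold changes are those of 0g over 1g with n = 2 arrays per group. Between 13143 and 13560 probes were detected on each of the 4 arrays. The arrays of a group agreed at r = 0.993 (0g) and 0.996 (1g) over the tested genes. The 0g pair was the less even of the groups: the SD of the log2 difference between its arrays was 0.28, against 0.20 at 1g, and 15 genes differed by more than 2-fold between the 0g arrays and 3 between the 1g arrays.

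The osteoblast label was checked against marker genes. Of 16 tested osteoblast markers, 14 and 15 were detected on the 1g arrays and 11 and 12 on the 0g arrays, among them the osteoblast transcription factor Sp7, Col1a1, Col1a2 and Alpl. Runx2 and Spp1 were not analysed here, and Dmp1, Sost and Dlx5 did not reach detection on enough arrays to be tested. The cultures also carried macrophage RNA. All 24 tested macrophage and osteoclast markers were detected on at least 1 array at 1g. A marker was tested only where 2 or more of the 16 arrays detected it, so this count is partly set by that filter. Cd163, Cybb, Calcr and Dcstamp were not detected on enough arrays to be tested. Lyz2, the lysozyme of myeloid cells, read 32193 and 34615 at 1g and 27242 and 26724 at 0g. The endothelial markers Pecam1 and Cdh5, the adipocyte markers Fabp4 and Plin1, the muscle markers Myod1 and Ckm and the chondrocyte marker Acan were not detected on enough arrays to be tested. Other members of these lists were detected on every 0g and 1g array. Among them were Vwf and Eng (endothelial), Pparg and Lpl (adipocyte), Des and Acta1 (muscle) and Sox9 and Col2a1 (chondrocyte). The markers therefore do not show that these cell types were absent.

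At an adjusted p under 0.05 (limma, Benjamini-Hochberg over all probes), 1488 of 10438 tested genes were higher at 0g (14.3%) and 1483 were lower (14.2%). These shares are the background for the counts in each gene group below. Large changes were more often downward. With the study's thresholds, a change of more than 2-fold with an unadjusted p under 0.05, 195 genes were upregulated (1.87%) and 429 were downregulated (4.11%), and 24 rose and 63 fell by more than 4-fold. The count of such genes differed between ways of processing: it was 624 as processed here, 396 with no background correction and 204 in the authors' normalized values, where both background and normalization differ. Of the 186 genes that are named here and passed the adjusted p, all had the same direction in the authors' values, and 86 had a log2 fold change there that was smaller by over 1.5 times (median ratio 0.711). With cyclic loess in place of quantile normalization, 39.1% of the genes called at the adjusted p were higher, against 50.1% here. The median gene moved by 0.036 on the log2 scale, and the 5th and 95th percentiles of all genes were -0.89 and 0.65. The 0g and 1g arrays did not overlap at 6123 genes (58.7% of those tested), so that a lack of overlap alone says little in a comparison of 2 arrays with 2. All 2759 genes called on their brightest probe were among them, so that for a called gene the lack of overlap adds no support. On both 0g arrays and neither 1g array 159 genes were detected, and 146 showed the reverse.

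The gene with the largest rise was Cck, which encodes the peptide hormone cholecystokinin. It read 49.1 and 48.6 at 1g and 995 and 1256 at 0g, a 22.9-fold rise (log2 fold change 4.52 ± 0.13, adjusted p = 2.08e-10). The water channel gene Aqp5 went from 138 and 155 to 2583 and 2210, a 16.3-fold rise (4.03 ± 0.11, adjusted p = 2.08e-10). Both 0g arrays lay far above both 1g arrays for each of these genes. Prl2c3, a member of the proliferin branch of the prolactin family, rose 13.9-fold from 754 and 871 to 11275 and 11218, and Prl2c4 rose 13.9-fold from 530 and 611 to 8320 and 7478. Proliferin genes are near-identical copies, so that their probes may read each other's transcripts and the rises cannot be assigned to single genes. Prl2c5 of the same family had a log2 fold change of 0.48 ± 0.27 and did not pass the test (adjusted p = 0.239). Inhbb, the subunit that forms activin B, rose 9.58-fold and differed between its 0g arrays (1568 and 969, against 122 and 136 at 1g). The aldehyde dehydrogenase gene Aldh3a1 went from 96.1 and 104 to 1020 and 846 (9.29-fold). The remaining 9 of the 15 largest rises were 4.95-fold to 6.66-fold and comprised Akr1c18 (a progesterone-metabolizing enzyme), Nkd2 (an intracellular Wnt antagonist), Ppbp (a platelet-type chemokine), Klk8 (a serine protease), Nqo1, Grem1 (a secreted BMP antagonist), Ass1 (the arginine-making enzyme argininosuccinate synthase), the histone gene H2bc6 and Fosb (an AP-1 subunit).

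The largest fall was that of Sfrp2, which encodes a secreted Wnt-binding protein. It read 1751 and 2196 at 1g and 96.5 and 86.5 at 0g, 21.5-fold lower (log2 fold change -4.42 ± 0.18, adjusted p = 2.56e-09). Hp, which encodes the haemoglobin-binding plasma protein haptoglobin, fell 14.8-fold from 963 and 938 to 54.4 and 75.7. Neither gene was lost from detection, and the 0g arrays were low for both. Olfml1 fell 11.9-fold, and Agtr1a, the main angiotensin II receptor, fell 8.65-fold from 504 and 455 to 64.6 and 47.5. The extracellular chaperone gene Clu fell 8.14-fold from 1720 and 1672 to 207 and 210, and Igfbp5, which encodes an insulin-like growth factor (IGF) binding protein, fell 6.83-fold from 7246 and 6777 to 1143 and 922. Mgarp, Car9, Scara5 (a ferritin receptor), Lbp (lipopolysaccharide-binding protein), Atp12a, Dpt (the matrix protein dermatopontin), Tril, Abi3bp and Egln3 made up the rest of the 15 largest falls, at 6.21-fold to 8.40-fold.

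**Figure D1:**
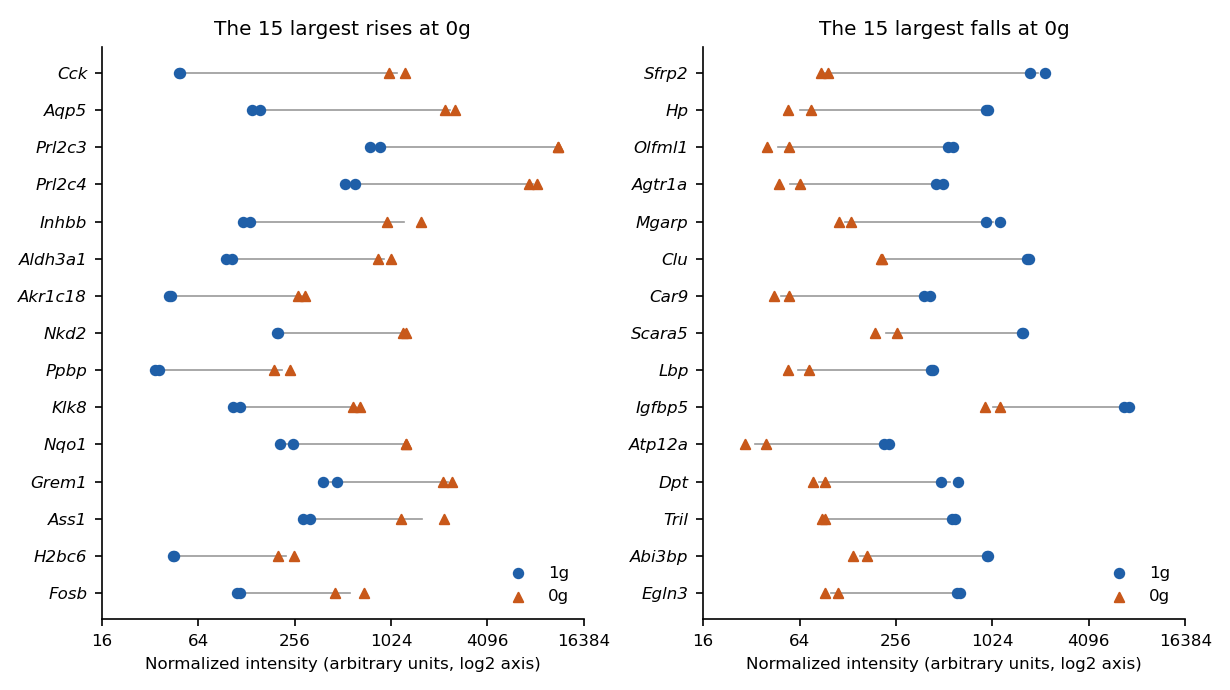
Normalized intensity (arbitrary units, log2 axis) of the 15 genes with the largest rises (left) and falls (right) at 0g in untreated Pthrp+/+ TOs; each point is 1 array, circles are 1g, triangles are 0g, and the line joins the group means. The genes were chosen among those whose groups did not overlap, and run from a 22.9-fold rise of Cck to a 21.5-fold fall of Sfrp2.

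Genes that cells switch on when oxygen is short were lower at 0g. When oxygen falls, prolyl hydroxylases such as Egln3 stop marking the HIF transcription factors for destruction, and HIF then binds short motifs in the promoters of genes for glucose uptake, glycolysis, acid handling and blood vessel growth. Of 24 tested hypoxia-induced genes 17 fell and 1 rose, with a median log2 fold change of -0.69. Car9, a carbonic anhydrase of the cell surface that moves acid out of the cell, read 381 and 417 at 1g and 44.1 and 54.7 at 0g, 8.11-fold lower (log2 fold change -3.02 ± 0.13, adjusted p = 3.04e-09). Egln3 read 616 and 638 at 1g and 92.2 and 110 at 0g, 6.21-fold lower (-2.64 ± 0.13, adjusted p = 1.40e-08). For both genes the 0g arrays lay several fold under the 1g arrays. The bases before the start of these genes are shown because the HIF motif core can be read in them, in capitals (ACGTG on the strand printed, or CACGT where it lies on the other strand). They are RefSeq windows of 250 bases upstream of the start on GRCm38.p6, at chr4:43506776-43507025 on the plus strand for Car9 and at chr12:54203875-54204124 on the minus strand for Egln3, printed 5′ to 3′.
Car9: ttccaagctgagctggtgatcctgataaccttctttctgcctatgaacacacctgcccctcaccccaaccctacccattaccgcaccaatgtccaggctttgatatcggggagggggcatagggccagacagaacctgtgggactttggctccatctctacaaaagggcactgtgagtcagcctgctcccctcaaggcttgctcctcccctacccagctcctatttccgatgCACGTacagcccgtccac
Egln3: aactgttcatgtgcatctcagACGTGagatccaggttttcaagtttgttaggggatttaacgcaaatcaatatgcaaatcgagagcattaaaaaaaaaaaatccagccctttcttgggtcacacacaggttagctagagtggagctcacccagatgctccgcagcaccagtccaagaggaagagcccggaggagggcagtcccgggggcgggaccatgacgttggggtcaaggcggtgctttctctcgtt
Each window held 1 match. A window was listed for 18 of the 24 hypoxia-induced genes, and 11 of the 18 genes had a match in at least 1 window. Counted by windows, 13 of 27 had one (48.1%), against 5444 of 32851 mouse promoter windows of that length (16.6%). A palindrome CACGTG holds the motif on both strands. A match describes the sequence only and was not tested as a site.

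Ndrg1 fell from 598 and 670 to 173 and 157, and the adenylate kinase gene Ak4 fell from 166 and 172 to 48.8 and 42.0, at 3.85-fold and 3.74-fold. Stc2 (stanniocalcin 2) fell 2.84-fold, and Slc2a1, which encodes the main glucose transporter, fell 2.47-fold from 5002 and 4410 to 1945 and 1852. As for every gene called on its brightest probe, the 0g and 1g arrays of these genes did not overlap. The glycolysis enzymes moved the same way, 10 of 16 falling and 1 rising (median -0.55). Pdk1, the kinase that keeps pyruvate out of the mitochondrion, fell 5.21-fold from 431 and 508 to 91.8 and 87.9. Aldoc and Aldoa, the aldolases, fell 3.97-fold and 2.07-fold, and Ldha, the lactate dehydrogenase subunit, fell 2.03-fold from 12724 and 11509 to 7306 and 4885. The phosphofructokinase gene Pfkl fell 3.53-fold on its brighter probe, with a log2 fold change of -0.35 on its other probe. Eno2, the neuronal form of enolase, was the member that rose, 1.95-fold from 496 and 496 to 927 and 1010. By contrast, of 42 subunits of the oxidative phosphorylation complexes 1 rose and 0 fell, with values between -0.24 and 0.52 on the log2 scale and a median of 0.05.

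**Figure D2:**
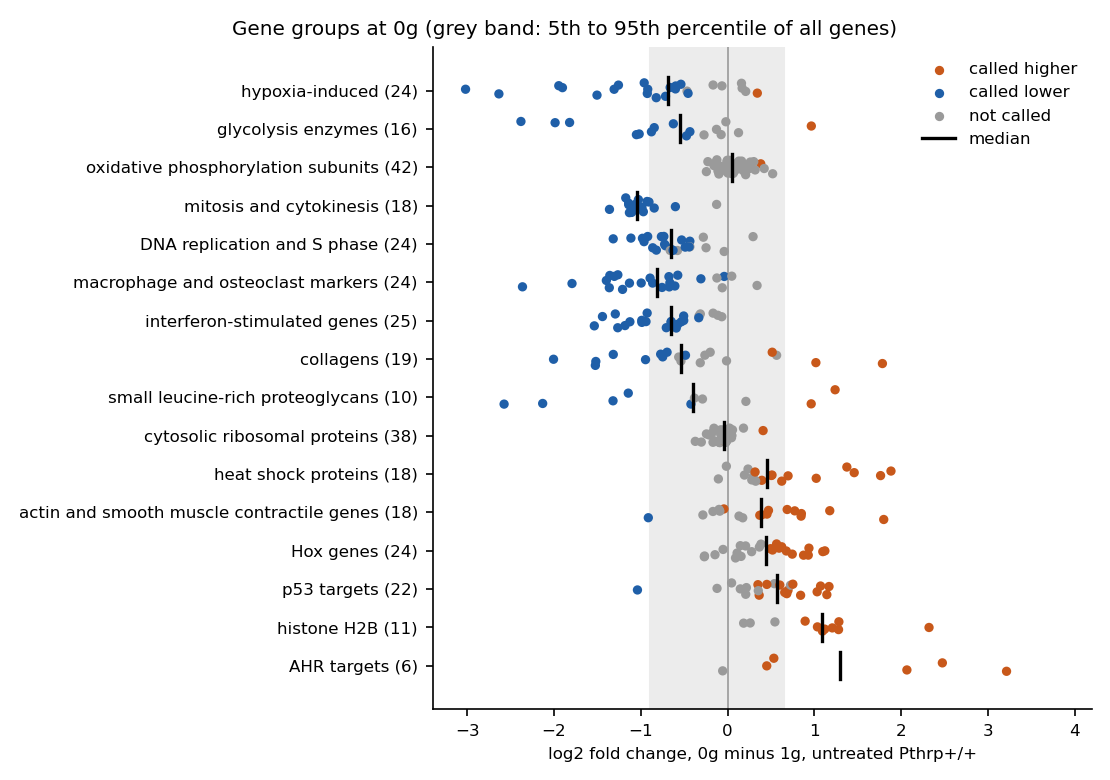
Log2 fold change (0g minus 1g, untreated Pthrp+/+ TOs) of every tested member of 16 gene groups, with the number of tested members in parentheses; each point is a gene coloured by whether it was called at an adjusted p under 0.05, black bars are group medians, and the grey band is the 5th to 95th percentile of all tested genes. The hypoxia-induced, glycolysis, mitosis, macrophage and interferon groups have medians of -0.55 to -1.05, histone H2B and AHR targets have medians of 1.09 and 1.30, and the oxidative phosphorylation and ribosomal protein groups sit around 0.

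Enzymes that handle foreign compounds were higher at 0g. The aryl hydrocarbon receptor (AHR) is a transcription factor that binds planar aromatic compounds and then switches on oxidizing and conjugating enzymes, together with its own repressor, Ahrr. Of 6 tested AHR targets 5 rose and 0 fell (median 1.30). The AHR targets Cyp1a1 and Cyp1a2 had probes but were not detected on enough arrays to be tested. Ahrr read 145 and 156 at 1g and 608 and 653 at 0g, a log2 fold change of 2.07 ± 0.11 (adjusted p = 3.23e-08). Nqo1, a quinone reductase, rose 5.56-fold from 249 and 207 to 1264 and 1262 on its brighter probe, whereas its other probe changed by 0.10. Cyp1b1, a cytochrome P450, rose 1.37-fold, from 3050 and 2720 to 3904 and 3974, and did not pass with any 1 of the 4 arrays left out. Tiparp was not detected on either 1g array and was at least 1.24-fold higher at 0g (adjusted p = 0.00945, or 0.103 without 1g replicate 2), and Ugt1a6a had a log2 fold change of -0.06. The window upstream of Ahrr is shown because the motif core bound by AHR, GCGTG searched on both strands, occurs in it 3 times, in capitals. It lies at chr13:74292332-74292581 on the minus strand of GRCm38.p6 (RefSeq, 250 bases upstream of the start, 5′ to 3′).
Ahrr: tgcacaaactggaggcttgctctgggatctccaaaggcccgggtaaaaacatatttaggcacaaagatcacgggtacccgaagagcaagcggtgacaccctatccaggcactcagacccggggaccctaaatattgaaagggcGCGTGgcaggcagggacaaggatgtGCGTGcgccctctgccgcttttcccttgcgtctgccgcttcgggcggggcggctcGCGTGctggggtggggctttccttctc
Of the 6 AHR targets 5 had a RefSeq window, and 3 of those 5 windows held the core (60.0%), against 9250 of 32851 windows (28.2%). The windows of Nqo1 and Ugt1a6a held no match.

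Genes controlled by NRF2, the factor that answers oxidative stress, and genes of glutathione conjugation changed in part, with 8 of 25 higher and 1 lower (median 0.21). Besides Nqo1, Ephx1 (an epoxide hydrolase) rose 2.10-fold from 4382 and 3942 to 9462 and 8051. Gstp1, a glutathione transferase, rose 1.98-fold, and the haem-degrading enzyme gene Hmox1 rose 1.62-fold. Gsta3, another glutathione transferase, fell 1.92-fold.

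Genes of cell division were lower at 0g. Of 18 tested genes of mitosis and cytokinesis 17 fell and 0 rose, with a median of -1.05. Nusap1, a spindle protein gene, read 808 and 786 at 1g and 303 and 318 at 0g (2.57-fold lower, adjusted p = 3.00e-06). Plk1, the kinase that drives entry into mitosis, fell 2.20-fold from 1149 and 1035 to 439 and 559, and Anln, Birc5 and Cdc20 fell 2.19-fold to 2.26-fold. Genes of DNA replication also fell, 17 of 24 with 0 higher (median -0.65). Tk1, thymidine kinase, fell from 1104 and 1013 to 435 and 414, Tyms, thymidylate synthase, fell from 1288 and 1295 to 627 and 683, and Mcm5, part of the replicative helicase, fell from 1947 and 1927 to 896 and 1103. The 0g arrays were low for all of these, and the folds were 2.49, 1.97 and 1.95. RefSeq listed 15 windows for 14 of the mitosis genes, and 5 of the windows (33.3%) held TTTGAA on either strand, the core of the cell cycle genes homology region, against 16.0% of all windows.

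The histone genes moved in both directions, largely by class. Replication-dependent histones are made in S phase from clusters of near-identical genes without poly(A) tails, so that single members are uncertain here. Of 11 H2B genes 8 rose and 0 fell (median 1.09). H2bc6 rose 5.00-fold from 44.7 and 45.5 to 201 and 253, and H2bc12 rose 2.43-fold from 460 and 491 to 1106 and 1201. Among the H4 genes H4c8 rose 4.67-fold from 243 and 290 to 1167 and 1313, and H4c12 rose 3.42-fold. H2A genes gave the falls, led by H2ac11 with 610 and 696 at 1g and 157 and 194 at 0g (3.73-fold lower) and by H2ac7 and H2ac15. Over the 29 tested genes of the H2A, H3, H4 and H1 classes 12 rose and 7 fell (median 0.22).

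Targets of p53, the factor that halts the cell cycle after DNA damage and other stress, were higher, with 13 of 22 rising and 1 falling (median 0.57). Mdm2, the ubiquitin ligase that degrades p53, rose 2.21-fold from 2989 and 2793 to 6154 and 6628. Ccng1 rose 2.05-fold from 2793 and 2844 to 5743 and 5787, and Cdkn1a, which encodes the cell cycle inhibitor p21, rose 1.61-fold from 8298 and 7787 to 14710 and 11319. Pmaip1, a death-promoting Bcl2 family member, rose 2.25-fold and Trp53inp1 2.10-fold. Sesn1 was the target that fell, 2.05-fold. Among Bcl2 family members and caspases as a whole, 6 of 23 rose and 10 fell (median -0.22), with the survival gene Bcl2l1 rising 1.84-fold and Bik, a death-promoting member, falling 2.17-fold.

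Macrophage markers were lower at 0g, and fewer macrophages and less RNA per macrophage cannot be told apart in bulk RNA, here or for any other cell type. Of 24 tested markers 20 fell and 0 rose (median -0.81), counting a gene where any of its probes passed. Their summed intensity was 161158 and 162433 on the 1g arrays and 119011 and 120503 on the 0g arrays. Mrc1, the mannose receptor, fell 5.15-fold from 2221 and 2328 to 461 and 424. Adgre1, which encodes the macrophage antigen F4/80, fell 2.57-fold from 3937 and 3945 to 1502 and 1564, and C1qa, part of complement C1q, fell 3.46-fold from 911 and 925 to 259 and 271. Fcer1g and Tyrobp, the signalling adaptors of myeloid receptors, fell 1.99-fold and 1.69-fold. Tyrobp did not pass with array weights (adjusted p = 0.0974), with no filter on dim probes, or without 0g replicate 1, 0g replicate 2 or 1g replicate 2. Ptprc (CD45) was detected on both 1g arrays and neither 0g array and was at least 1.36-fold lower (adjusted p = 0.00452, or 0.0613 without 1g replicate 1). The brightest probe of Lyz2 had a log2 fold change of -0.31 (adjusted p = 0.201), and its other probes -0.47 and -0.54. The osteoclast genes Ctsk and Acp5 had log2 fold changes of -0.12 and 0.05 and did not pass the test.

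Immune gene groups fell along with the macrophage markers, and the part of the macrophage RNA in these results was not tested. Interferon-stimulated genes, which cells switch on against viruses, were lower in 20 of 25 cases and higher in 0 (median -0.65). Oasl2 read 1555 and 1673 at 1g and 607 and 581 at 0g (2.72-fold lower), Usp18 read 1175 and 1172 at 1g and 520 and 515 at 0g (2.27-fold lower), and the ubiquitin-like modifier gene Isg15 fell 2.45-fold. Genes of antigen presentation fell in 9 of 17 cases and rose in 0 (median -0.62). H2-Ab1, a chain of the class II molecules of antigen-presenting cells, fell 2.10-fold, Cd74 was detected at 1g only and was at least 2.26-fold lower, and H2-M3, a class I molecule, fell 2.17-fold. Complement genes outside C1q fell in 7 of 9 cases and rose in 0 (median -0.71). Serping1, the C1 inhibitor, fell from 4699 and 4268 to 1761 and 1671, and Cfb, complement factor B, fell from 130 and 183 to 27.4 and 30.8 and was detected on 1 of the 0g arrays.

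Chemokines moved in both directions, with 11 of 22 lower and 6 higher (median -0.41). Cxcl12, which stromal cells of the marrow make to hold blood stem cells, fell 4.12-fold from 16222 and 14327 to 4012 and 3419. Pf4 fell 3.06-fold and Ccl11 2.38-fold. Ccl2, which attracts monocytes, rose 2.24-fold from 362 and 447 to 936 and 866. Ppbp, among the largest rises, went from 36.4 and 34.5 to 240 and 192. Acute-phase and iron-handling genes gave 5 of 14 lower and 2 higher (median -0.02). Lcn2, which binds bacterial iron carriers, was below detection on both 0g arrays, at least 4.57-fold lower (adjusted p = 3.04e-09). Saa3, serum amyloid A, fell 2.02-fold and Trf, transferrin, fell 2.13-fold.

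Genes of the extracellular matrix were rearranged. Among the collagens 9 of 19 fell and 3 rose (median -0.54). Col14a1, which coats collagen fibrils, fell 4.02-fold from 391 and 323 to 85.2 and 91.8, and Col15a1 of the basement membrane zone fell 2.87-fold. The chains of collagen I differed less: Col1a2 fell 1.93-fold from 3555 and 3662 to 2192 and 1602, and Col1a1 read 4641 and 4442 at 1g and 4391 and 2151 at 0g, with a log2 fold change of -0.56 ± 0.27 that did not pass the test (adjusted p = 0.153) and 0g arrays that lay 2-fold apart. Col3a1 fell 2.86-fold with a like gap between its 0g arrays (2153 and 1188, against 4540 and 4622 at 1g), and passed the test with 1 array left out only when that was 0g replicate 1. Col7a1, which anchors epithelium, rose 3.45-fold on its brighter probe and changed by 0.17 on the other.

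The small leucine-rich proteoglycans, which bind collagen fibrils and growth factors, fell in 5 of 10 cases and rose in 2 (median -0.40). Lum (lumican) fell 4.38-fold from 8462 and 7138 to 1918 and 1642. Dcn (decorin) fell 2.50-fold from 12529 and 11775 to 5189 and 4562, Ogn (osteoglycin) fell 2.21-fold, and Kera (keratocan) fell 5.96-fold from 215 and 214 to 35.9 and 36.0. Prelp and Fmod (fibromodulin) rose, 2.36-fold and 1.95-fold, and Prelp read 8275 and 8723 at 1g and 20647 and 19488 at 0g. Matrix glycoproteins fell in 13 of 35 cases and rose in 7 (median -0.06), although 2, 4 and 1 rose without 0g replicate 1, 1g replicate 1 and 1g replicate 2. Eln (elastin) fell 5.52-fold from 484 and 475 to 99.1 and 76.1, and Nid2 fell 4.36-fold, Mfap4 4.35-fold and Tnn 4.19-fold. Tinagl1 rose 3.02-fold, but in the authors' values its log2 fold change was 0.35 and did not pass (adjusted p = 0.0555).

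Of 21 metalloproteinases and their inhibitors 9 fell and 5 rose (median -0.26). The collagen-degrading and matrix-degrading enzymes Mmp3 and Mmp9 fell 3.18-fold and 4.19-fold, Mmp3 from 390 and 393 to 120 and 126, and Adamts1 fell 3.27-fold. Timp3, an inhibitor of these enzymes that is bound to matrix, rose 2.69-fold from 4325 and 4138 to 12168 and 10610. Mmp11 rose 2.00-fold.

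Osteoblast markers fell in 6 of 16 cases and rose in 1 (median -0.28), and 3 fell when either 1g array was left out. Alpl, the phosphatase that frees phosphate for mineral, fell 2.14-fold from 148 and 136 to 65.6 and 67.3. Ibsp, bone sialoprotein, fell 2.94-fold from 75.4 and 81.9 to 32.5 and 22.0 and was detected on 1 of the 0g arrays. Sp7 (osterix) was the marker that rose, 1.39-fold from 348 and 315 to 437 and 485, and did not pass when the 4 arrays were fitted alone (adjusted p = 0.0685) or without 1g replicate 2. Bglap, osteocalcin, read 64.3 and 63.8 at 1g and 54.4 and 86.6 at 0g and did not pass the test (adjusted p = 0.803). The adipocyte genes Adipoq and Pparg fell, Adipoq to below detection (at least 4.13-fold lower) and Pparg 2.12-fold from 497 and 407 to 235 and 192.

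Genes of contractile cells were higher, and genes of tendon moved in both directions. Scx (scleraxis), the transcription factor of tendon progenitors, rose 4.91-fold from 77.7 and 88.5 to 429 and 387, Mustn1 rose 2.28-fold and Mkx 1.51-fold, and 5 of 9 tendon genes rose (median 0.07). The 5 include Tnc, which passed only on a dimmer probe and had a log2 fold change of 0.07 on its brightest. Mkx did not pass without 1g replicate 1, nor in the authors' values, where its log2 fold change was 0.10. Kera, given with the proteoglycans, was the tendon gene that fell, and Tnmd, a marker of mature tendon cells named after its values were seen, had a log2 fold change of -0.20 and did not pass the test. Of 18 actin and smooth muscle contractile genes 11 rose and 1 fell (median 0.38). The 11 include Acta2, the smooth muscle actin, and Cald1, which passed only on a dimmer probe. Their brightest probes had log2 fold changes of -0.04 and 0.77. Des (desmin) rose 3.48-fold from 92.3 and 90.9 to 352 and 289, Lmod1 rose 2.26-fold and Tagln 1.80-fold, and Mylk, myosin light chain kinase, fell 1.88-fold. Among 5 tested skeletal muscle markers 3 rose, Des with them, while Myog, the transcription factor that defines muscle cells, had a log2 fold change of 0.19 and did not pass the test. Targets of YAP, a transcriptional co-activator that answers stretch and cell spreading, rose in 5 of 11 cases and fell in 0 (median 0.43). Ankrd1 rose 3.51-fold from 65.2 and 81.2 to 233 and 280, and Ccn2 (connective tissue growth factor) rose 2.05-fold from 10517 and 10726 to 20966 and 22594. Integrins and focal adhesion genes gave 3 of 19 higher, among them Itgb1 (1.68-fold), and 2 lower, among them Itga6 (2.23-fold), which did not pass without 0g replicate 2 or 1g replicate 2. These integrin counts lie near the shares over all genes, 14.3% higher and 14.2% lower. Hox genes, which give cells their position along the body, rose in 12 of 24 cases and fell in 0 (median 0.44), although 6 rose without 1g replicate 1 and 7 without 0g replicate 2. Hoxc6 rose 2.14-fold from 2056 and 2076 to 4325 and 4520, and Hoxb9, not detected at 1g, was at least 2.01-fold higher.

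Wnt proteins drive bone formation, and they are held back by secreted antagonists that bind the ligand or its receptor. The Wnt pathway gave 9 of 35 genes higher and 10 lower (median -0.08), and members of the same role went different ways. The secreted antagonists Sfrp1 and Sfrp2 fell, Sfrp1 3.02-fold from 1610 and 1599 to 534 and 529, and Sfrp4 was not detected at 0g (at least 2.17-fold lower). Of the other secreted antagonists Notum rose (log2 fold change 0.54), and Sfrp5, Frzb, Dkk1, Dkk3 and Wif1 did not pass the test. The ligand genes Wnt2, Wnt4 and Wnt10a rose and Wnt5a and Wnt5b fell, while Axin2 rose (1.13). Rspo3, a secreted booster of Wnt signals, fell 3.41-fold from 877 and 795 to 267 and 224. Nkd2, an antagonist inside the cell, rose 6.22-fold from 199 and 201 to 1213 and 1276, and Gpc1, a cell surface proteoglycan, rose 3.76-fold from 5543 and 5344 to 19330 and 21632.

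BMPs and activins are secreted dimers of the TGF-beta superfamily, and BMPs induce osteoblasts. In this pathway 9 of 24 genes rose and 5 fell (median 0.15). Bmp4 fell 5.74-fold from 984 and 1012 to 168 and 180. The BMP antagonists Grem1 and Nbl1 rose, Grem1 5.43-fold from 384 and 472 to 2177 and 2451 and Nbl1 2.39-fold from 1895 and 1893 to 4584 and 4480. Inhba, the activin A subunit, rose 3.56-fold from 1246 and 1237 to 4626 and 4219, as Inhbb did. Id4, a BMP target, fell 2.56-fold, whereas Id1, Id3 and Smad6 rose, with log2 fold changes of 1.06, 0.82 and 0.53. Id2 did not pass the test. Of 16 TGF-beta pathway genes 4 rose and 2 fell (median 0.23), with Tgfb3 rising 1.84-fold, the co-receptor gene Tgfbr3 falling 2.15-fold and the secreted matrix protein gene Tgfbi falling 2.97-fold from 3830 and 3986 to 1329 and 1305. The count of falls in this pathway lies near the share over all genes (14.2%).

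IGFs are the main growth factors stored in bone matrix, carried by binding proteins. Of 14 genes of this pathway 6 fell and 3 rose (median -0.16). Igf2 read 27670 on both 1g arrays and 6640 and 6229 at 0g, 4.30-fold lower. Igfbp3 fell 6.00-fold from 570 and 484 to 93.6 and 81.8, and Igfbp4 fell 1.78-fold, whereas the receptor gene Igf1r rose 1.70-fold. Among ligands and receptors of the PDGF, FGF and EGF families 8 of 20 fell and 6 rose (median -0.14). The receptor genes Pdgfra and Pdgfrb went opposite ways, Pdgfra falling 2.94-fold from 2682 and 2734 to 931 and 913 and Pdgfrb rising 2.20-fold from 186 and 224 to 480 and 419, while the ligand gene Pdgfa rose 2.19-fold. Ptn (pleiotrophin), a heparin-binding growth factor of bone and brain, fell 5.91-fold from 14885 and 15916 to 2552 and 2659.

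In the Notch and hedgehog pathways 3 of 10 genes rose and 0 fell, and the Notch targets Hey1 and Hes1 rose 3.48-fold and 2.57-fold, Hey1 from 112 and 117 to 403 and 393. Vasoactive receptors and their ligands fell in 6 of 14 cases and rose in 2 (median -0.25), with the natriuretic peptide clearance receptor gene Npr3 falling 4.10-fold and the endothelin receptor gene Ednrb 3.48-fold. Genes of the PTH receptor and cAMP response changed little as a group (3 of 16 higher, 2 lower, median 0.08), near the shares over all genes (14.3% and 14.2%). Ramp2, a partner of peptide hormone receptors, nevertheless fell 3.45-fold from 934 and 987 to 278 and 279. Of 14 genes by which osteoblasts steer osteoclasts, the cells that resorb bone, 5 rose and 3 fell (median 0.18). Tnfrsf11b, the decoy receptor osteoprotegerin, rose 2.33-fold from 946 and 897 to 2423 and 1903, and Tnfsf11 (RANKL), the ligand it blocks, fell 2.20-fold from 79.5 and 101 to 42.6 and 38.9. Csf1, a growth factor of macrophages and osteoclast precursors, rose 1.52-fold and did not pass when the 4 arrays were fitted alone (adjusted p = 0.0811) or without 1g replicate 1 or 0g replicate 2.

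Heat shock proteins, which refold damaged proteins, were higher in 11 of 18 cases and lower in 0 (median 0.45). The inducible Hspa1a rose 3.69-fold from 57.9 and 58.0 to 251 and 182, and the small heat shock genes Hspb1 and Cryab rose 3.40-fold and 2.75-fold, Hspb1 from 658 and 706 to 2270 and 2360. Chaperones of the endoplasmic reticulum and the unfolded protein response gave 5 of 21 higher and 1 lower (median 0.20). AP-1 and other immediate early genes, which respond to signals within minutes, gave 6 of 20 higher and 1 lower (median 0.18). Fosb read 112 and 116 at 1g and 699 and 457 at 0g (4.95-fold higher), and Atf3 fell 1.73-fold. Rbm3 and Cirbp, RNA-binding proteins that rise when cells are cooled, both fell. Rbm3 went from 3579 and 3802 to 937 and 1107 on its brighter probe (3.62-fold lower) and changed by 0.02 on the other, and Cirbp went from 185 and 169 to 74.8 and 81.6 (2.26-fold lower). The methods give a cooler incubator for the attachment to carriers than for the rotating vessel and describe the 1g incubator only as standard, and its part in this result was not tested.

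Genes of the basic machinery hardly moved. Of 38 cytosolic ribosomal protein genes 2 rose and 0 fell (median -0.05), and of 28 proteasome subunits 3 rose and 0 fell (median 0.14). Cholesterol and fatty acid synthesis gave 7 of 25 higher and 1 lower (median 0.17), with 2, 3 and 2 higher without 0g replicate 1, 1g replicate 1 and 1g replicate 2, and the circadian clock 2 of 15 higher (Nr1d1 1.86-fold) and 3 lower (Nfil3 2.04-fold). These clock counts lie near the shares over all genes, 14.3% higher and 14.2% lower. Imprinted genes fell in 5 of 11 cases and rose in 2 (median -0.38), with Dlk1, which holds back fat cell formation, falling 4.26-fold from 1452 and 1368 to 378 and 290, Mest falling 3.44-fold, the cell cycle inhibitor gene Cdkn1c falling 2.49-fold and Snrpn rising 2.36-fold. Neuropeptide and neurotrophin genes gave 4 of 13 higher and 2 lower. After Cck, the higher ones were the neurotrophin gene Bdnf (3.39-fold, from 170 and 163 to 616 and 517 on its brightest probe and by 0.11 and 0.15 on the others), Gdnf (3.24-fold) and the neuronal growth gene Stmn2 (2.52-fold).

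The same comparison was made in Pthrp+/+ TOs that received PTHrP1-36 each day, on 4 other arrays. No array was shared, although the treated vessels turned on the same axis as the untreated ones. In treated TOs 403 genes were higher (3.86%) and 512 lower (4.91%) at 0g. Of these, 363 were also higher in untreated TOs (90.1% of the treated list and 24.4% of the untreated list) and 454 were also lower (88.7% and 30.6%), while 6 were called in opposite directions. Over the 10438 genes the log2 fold changes correlated at r = 0.775, where all genes share the same normalization and genes are not independent replicates. Of the 15 largest rises 14 were called higher in treated TOs too, the exception being Fosb (0.43, adjusted p = 0.173), and of the 15 largest falls all 15 were called lower. The difference between the effects was called at 358 genes (3.43% of those tested). Leaving out 1 array moved this count to 272 or 409 without an untreated 0g array, 166 or 177 without an untreated 1g array, 154 or 150 without a treated 0g array and 167 or 151 without a treated 1g array.

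By gene group, the difference between treated and untreated TOs was called at many genes in some groups and at few in others. Of the oxygen-related genes, 20 of 24 hypoxia-induced genes and 12 of 16 glycolysis enzymes were lower in treated TOs (medians -0.96 and -0.72), with the difference called at 1 and 0 of them. Car9 fell by 2.97 and Egln3 by 2.86 on the log2 scale, and the treated effect minus the untreated one was 0.05 ± 0.18 (adjusted p = 0.965) and -0.23 ± 0.18 (adjusted p = 0.714). The H2B genes rose in 7 of 11 cases (median 0.67), with the difference called at 1, and AHR targets in 3 of 6 (median 0.68), with the difference called at 2. Of the mitosis genes 1 of 18 fell in treated TOs (median -0.21), and the difference was called at 11, each with the smaller fall in treated TOs. The median mitosis gene lay 1.03 and 0.97 under the untreated 1g mean on the untreated 0g arrays and 0.11 and 0.13 under it on the treated 0g arrays. For the replication genes 0 of 24 fell in treated TOs (median -0.05), with the difference called at 6. Macrophage markers fell in 8 of 24 cases (median -0.26), with the difference called at 10. Heat shock genes rose in 2 of 18 cases (median 0.09), with the difference called at 4, and 0 of 20 immediate early genes rose and 6 fell (median -0.29), with the difference called at 5. Interferon-stimulated genes fell in 2 of 25 cases (median -0.18), with the difference called at 7. Their treated 1g arrays already lay 0.71 and 0.70 under the untreated 1g mean, close to the untreated 0g arrays (0.62 and 0.82 under it).

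**Figure D3:**
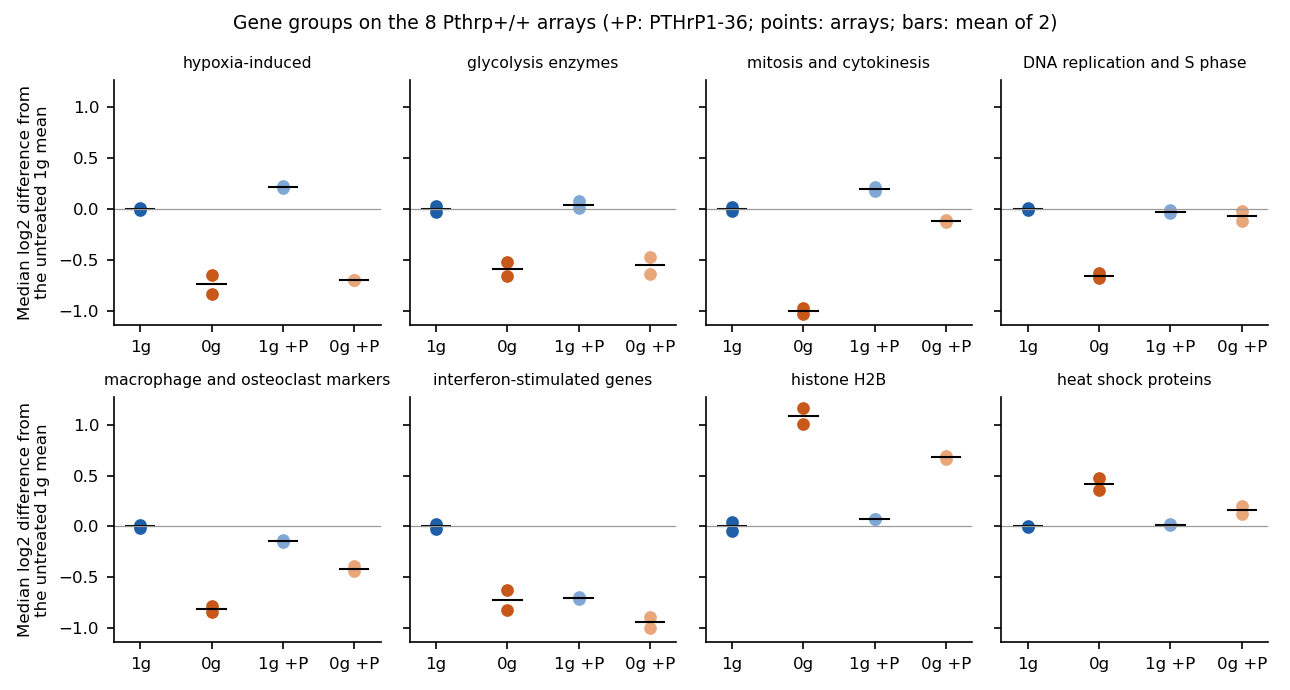
Median log2 difference of 8 gene groups from the mean of the untreated 1g arrays, on each of the 8 Pthrp+/+ arrays; points are arrays, bars are the mean of 2, and +P marks daily PTHrP1-36. The hypoxia-induced group is low on all 4 arrays at 0g (-0.64 to -0.83), the mitosis group is low on the untreated 0g arrays (-1.03 and -0.97) and near the 1g level on the treated ones, and the interferon group is low on every array except the untreated 1g pair.

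**Figure D4:**
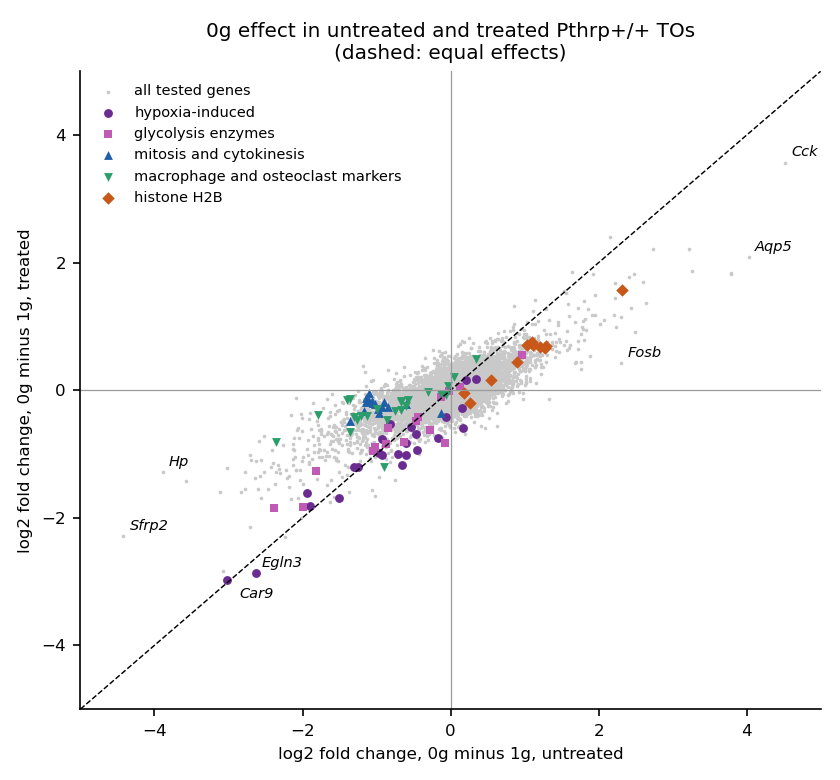
Log2 fold change at 0g in treated Pthrp+/+ TOs (vertical axis) against that in untreated Pthrp+/+ TOs (horizontal axis) for all 10438 tested genes (grey), with 5 gene groups in colour and 7 genes named; the dashed line marks equal effects. Car9 and Egln3 lie near the line, whereas Sfrp2, Hp, Aqp5 and Fosb lie between the line and the horizontal axis.

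The 4 arrays labelled untreated Pthrp-/- gave a different picture, and the genes above often went the other way on them. Between their 0g and 1g arrays 606 of the 10438 tested genes were higher and 500 lower, which is the background for the group counts below. Of the genes called in untreated Pthrp+/+ TOs, 541 were called in the opposite direction there (239 of those higher and 302 of those lower in Pthrp+/+), against 98 called in the same direction. The 0g effect differed between the genotypes at 2934 genes (28.1% of those tested). It was more positive in Pthrp-/- TOs at 48.9% of these, or 60.8% with cyclic loess normalization. The cultures also differed in marker RNA at 1g. The 24 macrophage markers summed to 25068 and 25177 on the untreated Pthrp-/- arrays (11 detected on each), against 161158 and 162433 in untreated Pthrp+/+ TOs (24 and 23 detected). The detection filter for testing a marker could be met by Pthrp+/+ arrays alone. Signals near background understate a change, and the part of this in the 2934 genes was not tested. Of the 15 largest rises 9 were called lower in Pthrp-/- TOs and Aldh3a1 was called higher (0.90), and of the 15 largest falls 6 were called higher and Egln3 lower. Cck had a log2 fold change of -2.33 there, Prl2c3 of -2.94, Agtr1a of 2.66 and Bmp4 of 2.02. Cck thus read higher at 1g than at 0g in the arrays labelled Pthrp-/-, and Agtr1a and Bmp4 read higher at 0g. The labels were taken as given. Whether any of these 4 arrays were exchanged was not tested, and an exchange of 0g with 1g would turn each direction given for Pthrp-/- TOs. Of the actin and smooth muscle genes 9 of 18 were higher and 1 lower in Pthrp-/- TOs (median 0.36), and the effect differed between the genotypes at 6 that were more positive and 3 that were more negative in Pthrp-/- TOs. Of the 24 tested hypoxia-induced genes 4 were lower and 1 higher (median -0.24). The spread between arrays was also wider here, since array weights estimated for each condition were lowest for the untreated Pthrp-/- 0g pair (0.393) and next lowest for the untreated Pthrp+/+ 0g pair (0.512), against 1.05 to 1.81 for the other conditions.

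**Figure D5:**
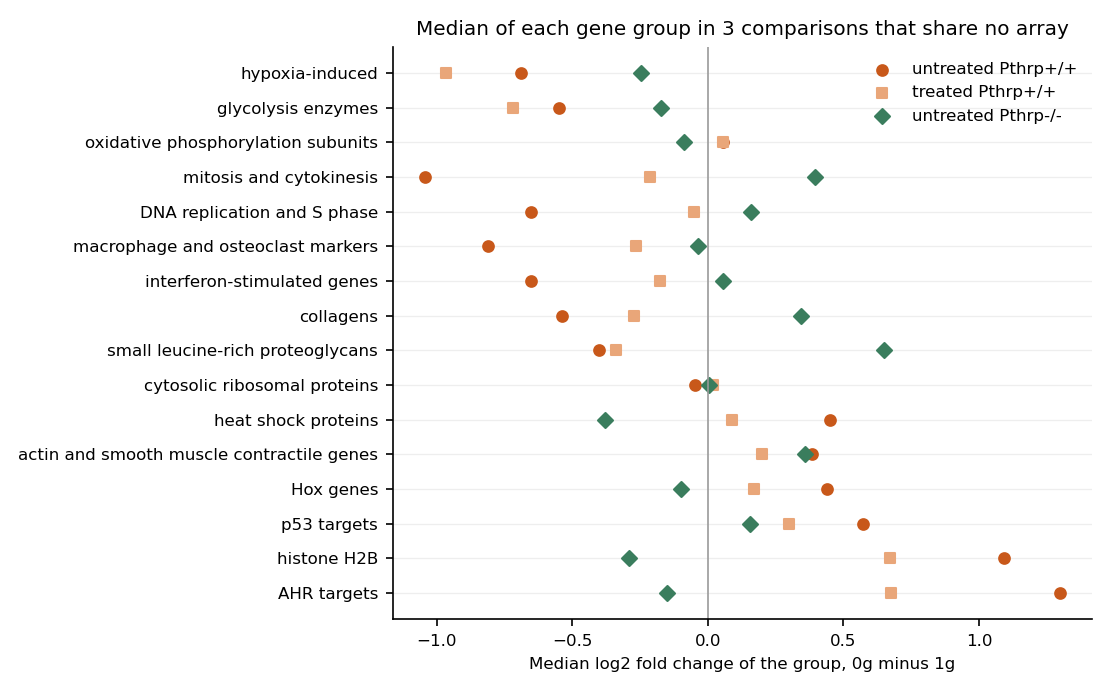
Median log2 fold change (0g minus 1g) of 16 gene groups in untreated Pthrp+/+ TOs (circles), treated Pthrp+/+ TOs (squares) and untreated Pthrp-/- TOs (diamonds), 3 comparisons that share no array. The hypoxia-induced and glycolysis medians are below 0 in all 3, the mitosis median is -1.05, -0.21 and 0.40, and the actin and smooth muscle median is above 0 in all 3.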

How the data were processed

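The TO RNA was measured on 16 arrays, Illumina's Mouse Ref-8 version 2.0, with 25697 probes. The authors deposited bead intensity values on a linear scale, not normalized between arrays. They also deposited a detection p-value for each intensity, and log2 values normalized with lumi in FlexArray, which served as an alternative. Intensities were background-corrected with the detection p (neqc of limma 3.58.1, R 4.3.3, offset 16), quantile-normalized and put on the log2 scale. The fit took the 15279 probes (10438 genes) that had a detection p below 0.05 on 2 or more arrays. Gene names came from the platform annotation, updated by gene number, with 1 symbol for 23978 probes (23962 by gene number) and none for 1719. One limma fit of 8 condition means (8 residual degrees of freedom, prior 4.98) gave two-sided p-values for every comparison, adjusted by Benjamini-Hochberg over all probes. A gene was counted where any probe passed, and its value is that of its brightest tested probe. "At least N-fold" sets a group not detected on either array at the lowest detected level of each array (27.6 to 28.9). Named genes are the 15 largest rises and falls whose arrays did not overlap, up to 6 members with the largest change for each of 56 lists with the defining markers, and the 6 largest differences between effects in each direction; the members and lists were chosen with earlier results of these data known. On simulated arrays, with far fewer changed probes than here, the fit recovered 85 of 100 probes changed 2-fold and 8 of 100 changed 1.5-fold. The number of arrays limits the precision. Array slides and the replicates that shared a rotation run are not given in the sources used here.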

Additional observations from a re-analysis of the deposited data

Results flagged for a closer look

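The 0g effect differed between treated and untreated Pthrp+/+ TOs at 358 genes by the limma interaction test, with 1669 at an unadjusted p under 0.05. The values that follow are the treated effect minus the untreated effect on the log2 scale, and all pass at an adjusted p under 0.05. The largest negative differences were those of the proliferin genes Prl2c4 (-1.98) and Prl2c3 (-1.95), the water channel gene Aqp5 (-1.94), the AP-1 subunit gene Fosb (-1.88), the protease gene Klk8 (-1.57) and the neuronal growth gene Stmn2 (-1.47). Prl2c4, Prl2c3, Aqp5 and Klk8 rose less in treated TOs than in untreated TOs, and Fosb and Stmn2 had log2 fold changes of 0.43 and -0.14 there that did not pass the test. The largest positive differences were those of Hp (2.60), Olfml1 (2.15), Sfrp2 (2.13), Kng1, which encodes kininogen (1.97), Clu (1.81) and the flavin monooxygenase gene Fmo1 (1.79).

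The 0g effect differed between Pthrp-/- and Pthrp+/+ TOs without treatment at 2934 genes, with 4222 at an unadjusted p under 0.05. The values are the Pthrp-/- effect minus the Pthrp+/+ effect on the log2 scale. The largest negative differences were those of Cck (-6.84), Prl2c3 (-6.73), Prl2c4 (-6.59), Aqp5 (-5.07), Akr1c18 (-4.91) and Prl2c1 (-4.11), all higher at 0g in Pthrp+/+ TOs and lower at 0g on the arrays labelled Pthrp-/-. The largest positive differences were those of Agtr1a (5.77), Sfrp2 (5.42), Scara5 (5.34), Olfml1 (4.74), Bmp4 (4.54) and Igfbp5 (4.35), all lower at 0g in Pthrp+/+ TOs and higher on the arrays labelled Pthrp-/-.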

How the results depend on the processing

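Between 0g and 1g the count of 2971 genes by adjusted p ran from 2400 with array weights to 3176 with trend and robust moderation when all 16 arrays were fitted. It was 1977 when the 4 arrays were fitted alone, 865 higher and 1112 lower in 0g, and 1915 of these genes were also among the 2971. It was 2068 to 2583 with each array left out in turn. After cyclic loess normalization 39.1% of the 2883 calls were higher in 0g, against 50.1% of the calls after quantile normalization. The count of 624 genes past both the fold and the unadjusted p was 396 with no background correction and 204 in the authors' normalized values, of which 201 were among the 624. It was 591 to 638 in the other fits to all arrays, 619 in the 4 arrays alone and 650 to 675 with an array left out. The 358 genes whose change differed between treated and untreated cells became 637 in the authors' values, 321 to 467 otherwise, and 150 to 409 with an array left out. The 2934 genes whose change differed between Pthrp-/- and Pthrp+/+ cells ranged from 2056 with array weights to 3147, and from 2284 to 3361 with an array left out, and 60.8% of them were more positive in Pthrp-/- cells after loess against 48.9%. The cause of these shifts was not tested. The median change over all genes was 0.04 on the log2 scale, -0.02 after loess and 0.01 in the authors' values.

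Same-numbered arrays of the groups at 0g and 1g deviated together with a correlation of 0.11 over 2 pairs. The sources do not state whether they were paired. With the replicate block the 4 counts were 2928, 624, 331 and 2914 over all arrays, and 2503 and 619 over the 4 arrays, none of them over 1.5 times from the count without it.

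Of 952 results for the medians of the gene lists, 927 kept their sign. The median of the adipocyte markers, 0.10, was -0.26 over probes detected on at least 2 of the 4 arrays, and -0.131 to -0.00733 with an array left out. That of the D cyclins and CDK inhibitors, 0.07, was -0.0157 after loess and -0.116 to 0.0923 with an array left out. The PTH receptor and cAMP response median, 0.08, was -0.0545 to 0.140 with an array left out. Amino acid and serine synthesis, 0.03, was -0.0334 after loess, and aquaporins and ion transport, -0.05, was 0.0263 over probes detected on at least 8 arrays. Among counts of list members, the 12 Hox genes higher in 0g became 6 without 1g replicate 1 and 7 without 0g replicate 2. The 7 higher genes of cholesterol and fatty acid synthesis became 2, 3 and 2, and the 7 higher matrix glycoproteins 2, 4 and 1, without 0g replicate 1, 1g replicate 1 and 1g replicate 2. The 6 lower osteoblast markers became 3 without either 1g array, and the 5 higher AHR targets became 3 without 1g replicate 2. Without 1g replicate 1 the 8 higher NRF2 and glutathione genes became 5, the 6 higher chemokines 3, the 5 lower BMP and activin genes 3, the 6 lower aquaporin and ion transport genes 3 and the 5 higher D cyclins and CDK inhibitors 3. The 5 higher ER chaperone genes became 3 without 0g replicate 1 or 1g replicate 1, the 5 higher osteoclast-regulating genes 3 without 1g replicate 1 or 0g replicate 2, and the 5 higher genes of amino acid and serine synthesis 3 without 1g replicate 1, 0g replicate 2 or 1g replicate 2.

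Of 3304 results for the 195 named genes, 3271 kept their call, 30 lost it, 3 gained it and none reversed. Cyp1b1 lost its call with any array left out (adjusted p of 0.055 to 0.185 by limma), after loess, with array weights and in the 4 arrays alone, with or without the replicate block. Sp7 also lost it in both fits to the 4 arrays (adjusted p = 0.0685, and 0.0531 with the block), and Csf1 in the fit without the block (0.0811). Col3a1 kept it only without 0g replicate 1, and Tyrobp only without 1g replicate 1. Tyrobp also lost it with no filter on dim probes (0.0548) and with array weights (0.0974). Itga6 lost its call without either replicate 2, Csf1 without 1g replicate 1 or 0g replicate 2, Sp7 and Tiparp without 1g replicate 2, and Mkx and Ptprc without 1g replicate 1. Mkx, Tiparp and Tinagl1 also lost it in the authors' values. Col1a1 gained a call without 0g replicate 1, and Lyz2 after loess and in the authors' values.

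Each group had 2 arrays, and their number limits the precision. With an array left out, the lone array of its group was assumed to vary like those of the other conditions. A gene without a call is not shown to be unchanged. Signals near background understate a change. The 4 arrays alone give no test against other conditions.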

Other observations

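Some gene groups were not described above. Ion transport genes other than Aqp5 moved in both directions, and with it 4 of 16 rose and 6 fell (median -0.05). Sgk1, a kinase induced by glucocorticoids that raises sodium transport, rose 2.09-fold from 6336 and 5743 at 1g to 12993 and 12212 at 0g, the potassium channel genes Kcnj15 and Kcnk2 rose 2.40-fold and 2.02-fold, and Atp1b1, a sodium pump subunit, fell 2.28-fold. D cyclins and inhibitors of cyclin-dependent kinases gave 5 of 15 higher and 4 lower (median 0.07). Ccnd1, the cyclin of early G1, rose 1.59-fold from 9744 and 8976 to 16071 and 13703 while the mitosis genes fell, and Cdkn2c fell 1.95-fold. Genes of amino acid and serine synthesis gave 5 of 15 higher and 2 lower (median 0.03), with Phgdh, the first enzyme of serine synthesis, rising 1.75-fold and Arg1, an arginase of macrophages and liver, not detected at 0g and at least 3.37-fold lower.

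Among 7 tested chondrocyte markers 2 rose and 3 fell (median -0.07). The cartilage collagen genes Col2a1 and Col10a1 rose 2.03-fold and 2.02-fold, Col9a2 fell 3.48-fold and Comp, which bridges collagen fibrils, fell 2.68-fold. Their summed intensity was 1069 and 969 at 1g and 681 and 760 at 0g. Adipocyte markers gave 3 of 7 lower and 0 higher (median 0.10), endothelial markers 2 of 7 higher and 1 lower (median 0.17), cadherins and gap junction genes 2 of 13 higher and 2 lower (median 0.13), and lymphoid and erythroid markers 1 of 2 higher. Of 886 tested probes with no gene symbol in the annotation used, 105 were higher and 99 lower at 0g. Over all tested genes 14.3% were higher and 14.2% lower. The counts of cadherins and gap junction genes, and that of lower endothelial markers, lie near these shares.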
